A study of Mus musculus with 6 samples.

Results

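Clock and glucocorticoid response genes were followed in the mouse hippocampus after focal cerebral ischemia. The 6 genes are Per1, Nfil3, Ciart, Rora, Pdk4 and Sik1, and they were chosen by their symbols from the 637 rows of the authors' deposited table of called genes. The study profiled RNA by sequencing in hippocampi of wild type C57BL/6 mice aged 56 days. The ischemia group held 3 samples, titled cerebral ischemia 2 h, from mice with middle cerebral artery occlusion, which closes the artery that feeds much of the cerebral hemisphere. The sham group held 3 samples, titled sham 2 h, from mice with the surgical control operation. The protocol text speaks of ischemic treatment lasting 2 h, and the titles do not say at which time after it tissue was taken. The labels give neither the time of day of collection, nor whether the hippocampus came from the blocked side, nor whether the samples are separate animals, so the spread behind a p-value may be technical.

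The table gives 1 mean of normalised reads per gene and group, without a standard deviation. The column M2 was taken for ischemia and S2 for sham, because M and S begin the 2 treatment labels, and every direction depends on this. A gene is called here when its adjusted p-value in the authors' deposited table is at most 0.05. Genes that are not called have no row, and for them neither the level nor a change is known. In this bulk tissue, fewer cells of a type and less RNA per cell cannot be told apart.

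The mammalian clock is a loop in which the activators CLOCK and BMAL1 bind E-boxes and switch on their own repressors, among them the PER and CRY proteins. Some clock genes also answer to signals from outside the loop: cAMP and calcium act through the factor CREB at cAMP response elements, and glucocorticoid hormone acts through its nuclear receptor. Per1 responds to both, and it is known as an immediate-early gene as well as a clock gene. In the hippocampus, a synaptic stimulus or a rise of stress hormone is known to induce such genes.

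The members differ in the elements near their annotated start. RefSeq promoter windows of 300 bases (250 before the start and 50 from it, build GRCm38.p6) matched 5 of the 6 genes, all but Sik1, and gave 6 windows, since Per1 has 2 starts. The stretches that hold an E-box (CACGTG) or the core of the cAMP response element (TGACG) are shown because these are the clock's own element and the CREB element, with the match in capitals and each read 5′ to 3′ on the gene's strand. The Ciart stretch is chr3:95882257-95882369 (minus strand). The Per1 stretches are chr11:69098758-69098813 and chr11:69098699-69098732 before the upstream start and chr11:69099995-69100049 before the downstream start (plus strand). The Nfil3 stretch is chr13:52981080-52981123 (minus strand), where the match lies on the opposite strand.
Ciart, 3 E-boxes: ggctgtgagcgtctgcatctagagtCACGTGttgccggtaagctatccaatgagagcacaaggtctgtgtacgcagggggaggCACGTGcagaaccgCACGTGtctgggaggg
Per1, upstream start, E-box: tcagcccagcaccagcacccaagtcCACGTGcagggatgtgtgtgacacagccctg
Per1, upstream start, TGACG: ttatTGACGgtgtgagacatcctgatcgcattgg
Per1, downstream start, TGACG: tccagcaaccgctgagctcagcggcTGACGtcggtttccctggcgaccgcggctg
Nfil3, TGACG on the opposite strand: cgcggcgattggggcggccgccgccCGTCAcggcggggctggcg

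The 3 E-boxes of Ciart begin 116, 58 and 44 bases before its start. At least 3 E-boxes stand in 29 of the 32851 promoter windows of the RefSeq table (0.0883%), and at least 1 in 7.15% of them. The minimum of 3 is the number that Ciart itself has, so the first share is a description and no test. Per1 has an E-box 166 bases before its upstream start. The TGACG core begins 246 bases before the upstream start of Per1, 132 before its downstream start and 59 before the start of Nfil3; it is found in 20.8% of all windows. The whole element, TGACGTCA, was in 0 of the 6 windows and in 1.79% of all windows, and each whole element also counts as a core.

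Further motifs were searched on both strands. The core of the ROR element (AGGTCA), which RORA binds, lies in the upstream Per1 window and in that of Nfil3, and in 16.3% of all windows. The D-box that the NFIL3 protein occupies (TTATGTAA or TTACGTAA; 1.06% of all windows) and a relaxed form of the palindromic glucocorticoid response element (0.475%) were in 0 of the 6. The windows of Pdk4 and Rora held none of the motifs searched. A match describes these letters and is no evidence of binding, and distal elements lie outside the windows.

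**Figure D1:**
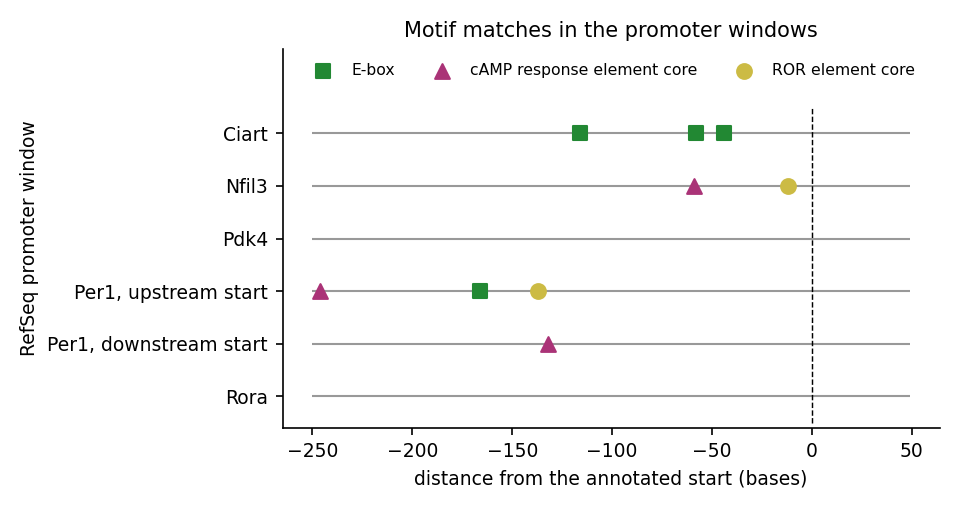
Motif matches in the RefSeq promoter windows of 5 genes, by distance in bases from the annotated start (dashed line); squares are E-boxes, triangles the TGACG core and circles the AGGTCA core, each at its first base. Ciart carries 3 E-boxes, Per1 and Nfil3 carry the TGACG core, and the lines of Pdk4 and Rora are empty.

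All 6 genes rose in ischemia, by 8.65-fold for Nfil3, 4.18-fold for Sik1, 2.96-fold for Per1, 2.86-fold for Ciart, 2.01-fold for Pdk4 and 1.50-fold for Rora, as ratios of the means in the authors' deposited table. Of the 28319 genes that the authors' adjusted p-values imply were tested, 2.25% were called and 1.47% were called higher. The 6 were picked with these calls known, so their count is a description. Their median log2 fold change was 1.54 and that of all 415 higher genes was 1.07. A ratio of at least 2 was reached by all but Rora among the 6. Called rises of at least that ratio made up 0.787% of the genes tested, and the ratios of genes not called are unknown. All 6 passed an adjusted p of 0.01, as rises in 0.929% of the genes did. Nfil3, Per1 and Sik1 passed an adjusted p of 0.001 (0.604% of the genes, as rises) and a Bonferroni correction (0.477%). All 6 had means of at least 50 normalised reads in both groups, as had 364 of the 415 higher genes (1.29% of the genes tested). By p-value the genes fell apart: Sik1, Nfil3 and Per1 stood at ranks 25, 46 and 83 of the 637, and Ciart, Pdk4 and Rora at 254, 270 and 320.

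**Figure D2:**
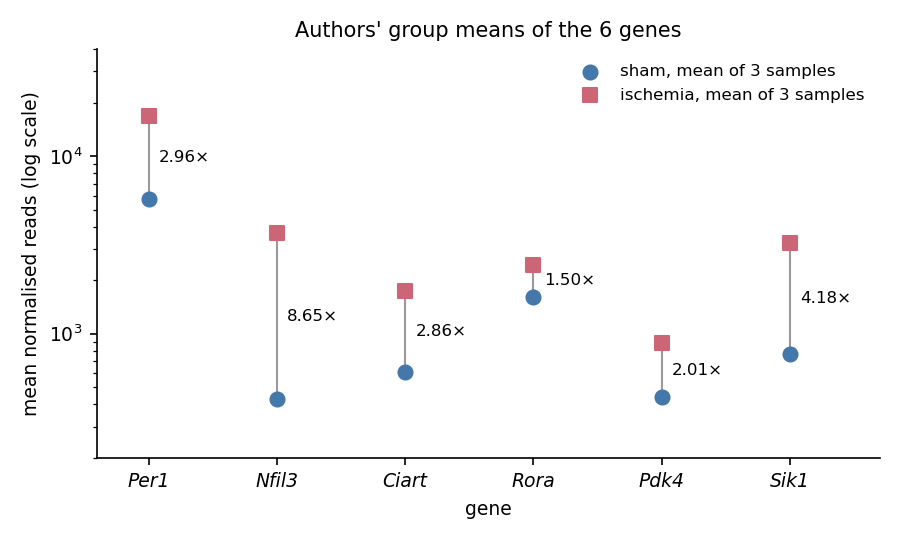
Mean normalised reads (log axis) of each gene in sham (circles) and ischemia (squares), 3 samples each, with the ratio of the means; the deposited table has no spread. Every square lies above its circle, farthest for Nfil3 (8.65-fold) and nearest for Rora (1.50-fold).

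Per1, a transcriptional repressor in the core loop, was the most abundant of the 6. The authors' deposited table lists it at 5711 normalised reads in sham and 16881 in ischemia, a log2 fold change of 1.56 (adjusted p = 7.35e-07). The added 11169 reads are the largest absolute increase of the 6 genes, although its ratio is rank 141 of the 415 higher genes. Its nearest neighbours among all called genes, by distance over the 2 group means on the log2(mean + 1) scale, were Rheb, an activator of mTOR signalling (distance 0.20), and the AP-1 subunit gene Jun (0.21). Such a distance compares 2 means and says nothing of shared control.

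Nfil3 encodes a bZIP repressor that competes at D-boxes with the activators DBP, TEF and HLF. It was listed at 427 normalised reads in sham and 3696 in ischemia in the authors' deposited table, with a log2 fold change of 3.11 (adjusted p = 2.87e-10). The 3 sham libraries could be told apart for this gene by separating the mean into whole reads. They held 388, 485 and 479 reads, or 443.8, 438.1 and 399.1 normalised reads (427 ± 24.3, SD, n = 3). The libraries of the sham group were close to each other, with a coefficient of variation of 5.69% against a median of 11.2% over 69 called genes with sham means of 200 to 450. The ischemia mean was 8.33 times the highest sham library. Its ischemia mean was too large to be separated, so the spread in that group is unknown. Nearest to Nfil3 were the potassium channel gene Kcnj2 (distance 0.10, at 400.5 and 3571 normalised reads in sham and ischemia in the authors' deposited table) and the transcription factor gene Csrnp1 (0.54).

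Ciart, also known as Chrono, encodes a repressor of the CLOCK and BMAL1 pair. It went from 611.9 normalised reads in sham to 1747 in ischemia in the authors' deposited table, a log2 fold change of 1.51 (adjusted p = 0.00242). The ratio was close to that of Per1 (log2 1.56), while its read level was lower and its p-value larger. For Ciart 2 separations of the sham mean into whole reads were possible: 676, 566.4 and 593.3 normalised reads in the 3 libraries, or 20.6, 786.8 and 1028. The separation alone does not decide between them. The highest library was 1.19 times the lowest in the first and 49.9 times in the second. The ischemia mean lies above the highest library in both. The nearest called genes, at distances of 0.05 and 0.11, have no symbol.

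Rora encodes a nuclear receptor that activates Bmal1 through ROR elements. It had the smallest ratio of the 6, at 1620 normalised reads in sham and 2431 in ischemia in the authors' deposited table, a log2 fold change of 0.59 (adjusted p = 0.00612). It is rank 358 of the 415 higher genes; the smallest rise called was 0.42. Exons of Rora overlap those of the antisense gene Gm15511 by up to 82 bases in the GENCODE M21 annotation, and no source used here says if reads were counted by strand. None of the other 5 genes overlaps an annotated exon of another gene there. The closest called genes were Ap1s2, a clathrin adaptor subunit gene (distance 0.04), and Nup98, a nuclear pore gene (0.07).

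Thalamic neurons express Rora strongly, and the thalamus borders the hippocampus. Among 15 thalamic marker genes, Rora and Rgs16 were called, both higher, and 13 were not, among them Tcf7l2, Prkcd and Slc17a6. The share called higher was 1.47% of all genes tested, and Rora itself was chosen with its call known. Rgs16 was at 307.4 normalised reads in sham and 686.2 in ischemia by the authors' deposited table (adjusted p = 4.47e-08), and its exons overlap an antisense gene. In sham its 3 libraries separated to 355.7, 298.1 and 268.3 normalised reads. The part of neighbouring tissue in the Rora value was not tested.

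Pdk4 encodes a mitochondrial kinase that switches off pyruvate dehydrogenase, and it is induced by fasting and by glucocorticoids. It was the scarcest of the 6 in ischemia by read count, at 440.9 normalised reads in sham and 885 in ischemia in the authors' deposited table, a log2 fold change of 1.01 (adjusted p = 0.00289). The sham mean separated into 338, 600 and 473 reads, or 386.6, 542 and 394.1 normalised reads (440.9 ± 87.6, SD, n = 3). Library B stood above the other two, and the coefficient of variation of 19.9% exceeded that of 57 of the 69 sham means of similar size. The ischemia mean was 1.63 times that highest sham library.

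For the ischemia mean of Pdk4, 4 separations were possible. In 2 of them every ischemia library lies above every sham library, with lowest values of 686.7 and 713.8 normalised reads. In the other 2 the lowest ischemia library, at 355.3 or 337, lies below the lowest sham library. The highest ischemia library was 1.59 or 1.43 times the lowest in the first 2 separations, and 4.13 or 4 times in the other 2. The separation alone does not decide whether the groups overlap for Pdk4. The log2 fold change was 1.18 without sham library B, against 0.92 and 0.93 without A and C. Nearest in pattern were a gene with no symbol (distance 0.05) and Sap30, a subunit gene of a histone deacetylase complex (0.13).

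**Figure D3:**
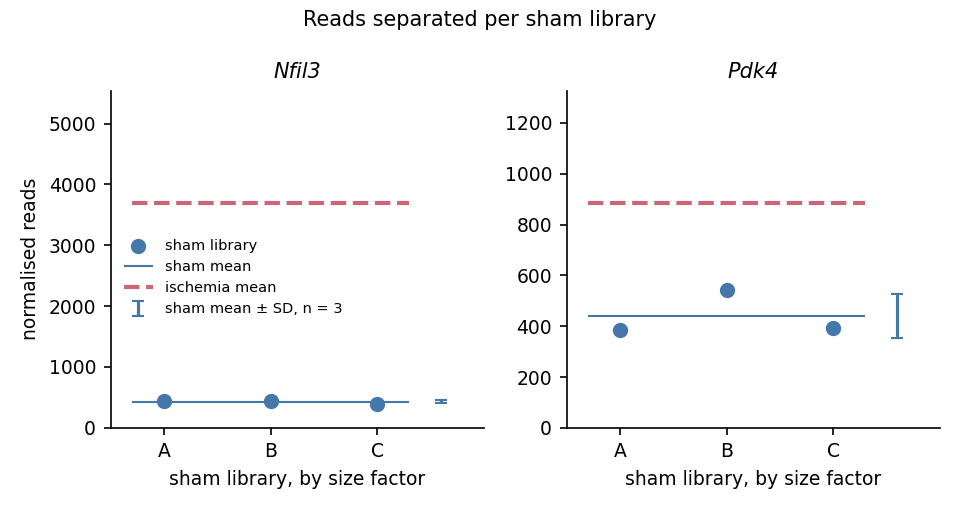
Normalised reads of Nfil3 and Pdk4 in the 3 sham libraries (points, lettered by size factor), with the sham mean (line), its SD (bar, n = 3) and the ischemia mean (dashed). The ischemia mean of Nfil3 is 8.33 times the highest sham library and that of Pdk4 1.63 times.

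Sik1, salt-inducible kinase 1, is a CREB target whose product holds back the CREB coactivators of the CRTC family, and so closes a feedback loop on cAMP signalling. The authors' deposited table gives 771.7 normalised reads in sham and 3223 in ischemia, a log2 fold change of 2.06 with the smallest p-value of the 6 genes (adjusted p = 1.53e-16). Its sham mean allowed 4 separations, whose highest single library ranged from 788.6 to 1681 normalised reads. The ischemia mean lies above all of these. The most similar called genes were Fam107b (distance 0.06) and the pseudokinase gene Trib1 (0.13).

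Levels of different genes were compared per kilobase of merged GENCODE M21 exons, which is not the annotation the authors counted. Per1 was highest in sham, at 1014 normalised reads per kilobase, followed by Ciart (270.6), Nfil3 (210.8), Sik1 (150.3), Pdk4 (125.6) and Rora (123.9). The sham SD was 12 per kilobase for Nfil3 and 25 for Pdk4. The gaps from Pdk4 to Rora and to Sik1 were no larger than this SD of Pdk4. The sham spread of Rora is unknown and that of Sik1 undecided, so the order of Sik1, Pdk4 and Rora is not settled. In ischemia the per-kilobase order was Per1 (2998), Nfil3 (1824), Ciart (772.8), Sik1 (628), Pdk4 (252.1) and Rora (186.0). Nfil3 thus changed places with Ciart, and the other 4 kept their ranks.

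**Figure D4:**
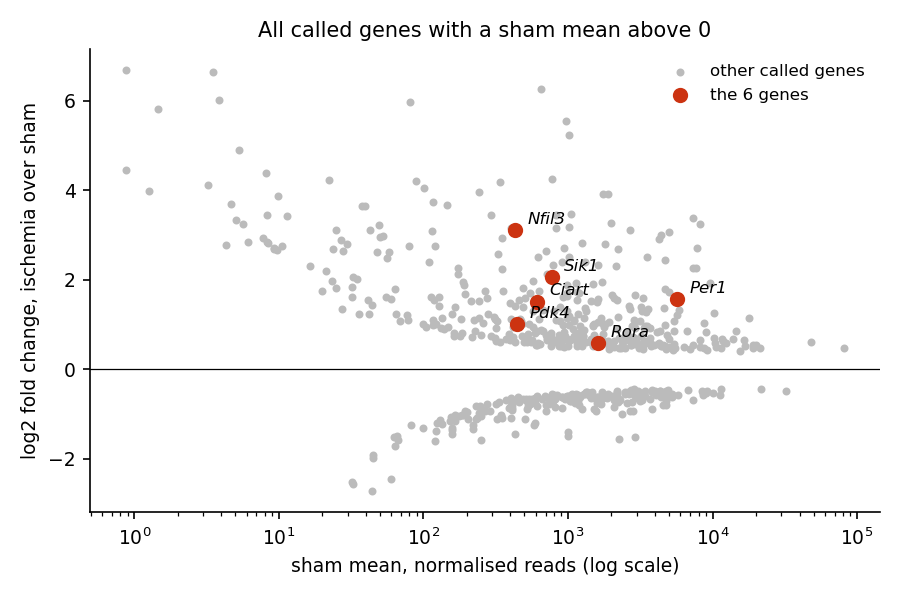
Log2 fold change of ischemia over sham against the sham mean in normalised reads (log axis) for the called genes with a sham mean above 0; grey points are other called genes and red points the 6 genes. Nfil3 (3.11) is the highest red point, and Rora (0.59) lies near the lower edge of the called rises.

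Only some genes of the clock list were called. Of 27 core clock and clock output genes, 4 were called higher (Nfil3, Per1, Ciart and Rora), 0 lower and 23 were not called. The share called higher among all genes tested was 1.47%. The 4 called genes are all among the 6 described here, which were chosen with the calls known, so nothing is read from this count. Their median log2 fold change was 1.54. The core activators (Clock, Arntl, Npas2), the other PER and CRY repressors (Per2, Per3, Cry1, Cry2), the REV-ERB genes (Nr1d1, Nr1d2) and the D-box activators that NFIL3 opposes (Dbp, Tef, Hlf) have no row. Close relatives are also without a row: Rorb beside Rora, and Bhlhe40 and Bhlhe41, E-box repressors induced by many stimuli. On the 13-gene list of ROR and REV-ERB targets and partners, Nfil3 and Rora were called and 11 were not. These 2 are again among the 6, so this count is a description beside the same 1.47%.

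Of 35 genes known to respond to cAMP and CREB, 23 were called higher, 0 lower and 12 were not called, with a median log2 fold change of 2.70 over the called. Among all genes tested 1.47% were called higher, and the list was chosen with earlier results of these data known. Per1, Sik1, Nfil3 and Ciart belong to this list, and 3 of these are also on the clock list, so the lists are not independent. Without the 4, the other 19 called genes had a median ratio of 8.01; 17 of these 19 rose by a larger ratio than Per1 and 16 by a larger ratio than Sik1. All these values come from the same contrast, and the difference between the lists was not tested.

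The 8 genes of that list with the smallest p-values are given beside the 6. They are its extreme by p-value in the same contrast and do not stand for the whole list. In the authors' deposited table the orphan nuclear receptor gene Nr4a1 has 4434 normalised reads in sham and 35534 in ischemia. The MAP kinase phosphatase gene Dusp1 rose 5.27-fold and the growth-response factor gene Egr1 6.51-fold there. The AP-1 family genes Fos and Junb rose 37.4-fold and 8.42-fold, and the stress-induced factor gene Atf3 rose 62.6-fold, as ratios of means in the authors' deposited table. The small GTPase gene Gem and the G protein brake gene Rgs2 stand at ratios of 8.49 and 9.66 in the authors' deposited table. Nfil3 (8.65-fold) lies above 5 and below 3 of these, and Per1, Sik1 and Ciart lie below all 8. Among all 23 called genes of the list, Nfil3 is rank 8 by ratio, Sik1 18, Per1 20 and Ciart 21. Exons of Dusp1 and Junb overlap those of an antisense neighbour.

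The same motifs were counted in the promoter windows of the longer lists. The TGACG core was in 22 of 38 windows of the cAMP and CREB list (57.9%), in 13 of 39 of the glucocorticoid-induced list (33.3%), in 9 of 30 of the clock list (30%) and in 20.8% of all windows. The whole element TGACGTCA was in 6 of 38 (15.8%), 2 of 39 (5.13%), 1 of 30 (3.33%) and 1.79%, in the same order. E-boxes were in 5 of 38 (13.2%), 6 of 39 (15.4%) and 6 of 30 (20.0%), against 7.15% of all windows. The ROR core was in 4 of 38 (10.5%), 6 of 39 (15.4%) and 5 of 30 (16.7%), against 16.3% of all windows. The D-box was in 1 of 38 (2.63%), 0 of 39 and 2 of 30 (6.67%), against 1.06%. The glucocorticoid response element was in 3 of 39 windows of the glucocorticoid-induced list (7.69%) and in 0 of the windows of the cAMP and CREB list and of the clock list, against 0.475% of all windows. These shares describe lists that share genes and were compiled from general knowledge, and no test was made.

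**Figure D5:**
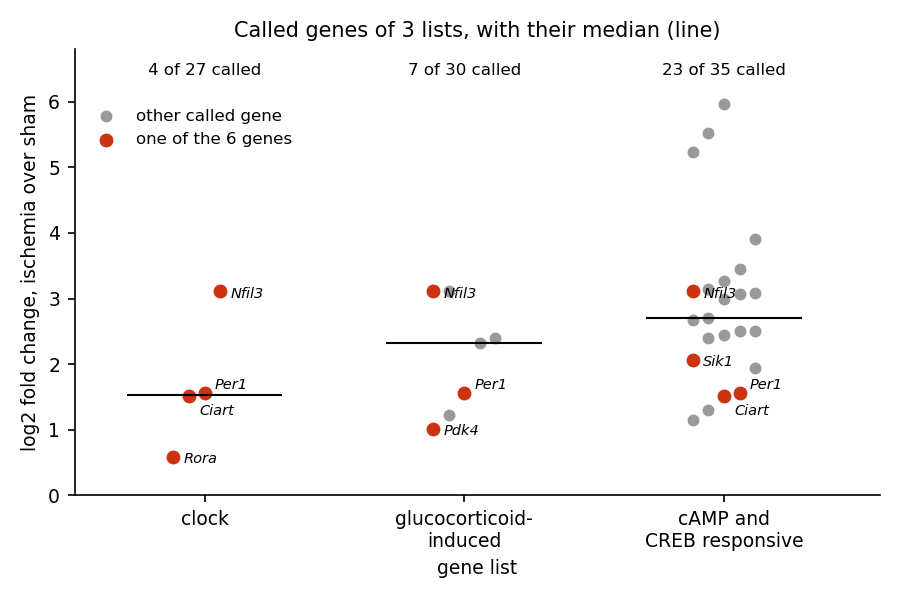
Log2 fold changes of the called genes of the clock, glucocorticoid-induced and cAMP and CREB responsive lists; red points are the 6 genes where they belong to a list, grey points other called genes, lines the medians of the called genes and the text above gives the called of all list genes. Nfil3 lies above the median line in each list, and Per1 and Ciart lie below that of the cAMP and CREB list.

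Of 29 genes of the salt-inducible kinases, CRTC coactivators, CREB and protein kinase A, the pathway that Sik1 belongs to, 2 were called higher, 1 lower and 26 were not called, where 2.25% of all genes tested were called in either direction. Sik1 itself is 1 of the 2 called higher. Crem, whose product includes the cAMP-induced repressor ICER, was at 796.4 normalised reads in sham and 1966 in ischemia by the authors' deposited table (adjusted p = 3.32e-11). The acetyltransferase gene Ep300, a CREB coactivator, fell in the authors' deposited table, with 4089 normalised reads in sham and 2762 in ischemia (adjusted p = 0.0048). Exons of both overlap those of another annotated gene. Sik2, Sik3, Crtc1, Crtc2, Crtc3 and Creb1 were not called.

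Glucocorticoid-induced genes gave 7 rises, 0 falls and 23 not called, of 30, where 1.47% of all genes tested were called higher. The 7 called genes had a median log2 fold change of 2.32. Besides Per1, Nfil3 and Pdk4, these were Dusp1, the growth factor receptor brake Errfi1 (8.64-fold), the cell cycle inhibitor Cdkn1a (5.01-fold) and the kinase gene Sgk1, at 5684 normalised reads in sham and 13219 in ischemia in the authors' deposited table (adjusted p = 0.0458). Dusp1, Nfil3 and Per1 are also on the cAMP and CREB list. Per1, Nfil3 and Pdk4 were chosen with their calls known, so the count and the median of this list are a description. Genes often used as readouts of the glucocorticoid receptor, Fkbp5, Tsc22d3, Zbtb16, Klf9, Mt1 and Mt2, had no row. Of 15 genes of the receptor and its chaperones, 1 was called, where 2.25% of all genes tested were called in either direction. That gene, the cytosolic chaperone gene Hsp90aa1, has a ratio of 1.53 and an adjusted p = 0.0115 in the authors' deposited table. Nr3c1 and Nr3c2, the receptor genes, were not called. Corticosterone is not among the data used here.

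Of 32 genes that control pyruvate dehydrogenase or fatty acid oxidation, 1 was called, where 2.25% of all genes tested were called in either direction. That gene was Pdk4, which was chosen for being called, so nothing is read from this count. The Pdk4 relatives Pdk1, Pdk2 and Pdk3, the phosphatases Pdp1 and Pdp2 that oppose Pdk4, and the PPAR and FOXO regulators on the list were not called. Angptl4 and Cpt1a, which are often induced together with Pdk4, also had no row.

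Cell type markers moved with the groups in places. Oligodendrocyte markers gave 4 rises of 10 and 6 were not called. Among the 4, Ermn, Cldn11 and Cnp rose 1.34- to 1.39-fold. Microglia markers gave 2 rises of 10 (Fcrls and Ly86) and blood leukocyte markers 2 of 10 (S100a8 and S100a9) in the authors' deposited table. Dentate granule cell markers gave 2 falls of 10 (Lct and Dsp), and endothelial markers 1 fall of 10 (Sox18). The lists of pyramidal cells, interneurons, astrocytes and choroid plexus had 0 called of 10 each. By comparison, 2.25% of all genes tested were called in either direction. Nfil3 is also expressed by leukocytes. The neutrophil gene S100a8 held 16, 9 and 6 reads in the sham libraries and 26, 71 and 122 in the ischemia libraries, and S100a9 held 1, 4 and 11 against 22, 83 and 70. The 2 groups of libraries did not overlap for either gene, at low counts. The share of other called genes without overlap is not given here. Both genes are shown because they were called, so nothing further is read from this. The part of cell composition in the 6 rises was not tested.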

How the data were processed

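Per the labels' protocols, RNA was extracted from flash frozen hippocampi with Trizol and sequenced on Illumina libraries. Bowtie 0.12.2 and build mm8 are named, without their role, per the submitters' processing notes. The authors deposited 1 table, whose read signal is a normalised read count averaged over each group's 3 samples, per the file headers and values, beside the authors' log2 fold change and their p-value before and after adjustment. Identifiers carry an Ensembl BALB/cJ prefix in 612 of 637 rows. No source used here gives the normalisation, the test or the use of strand.

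The table has 0 columns per sample, so no model was refitted, whichever tests the design allowed. The number of genes tested, 28319, is that whose Benjamini-Hochberg values match 636 of 637 printed ones. Each mean adds up 3 libraries' whole reads, weighted by steps that the size factors set. Lattice reduction over the 12 lowest means of each group gave these steps (size factors 0.837 to 1.20), and means up to 450 were split: 192 of 195 in sham and 145 of 172 in ischemia had 1 solution. For the 6 genes, possible splits were listed up to a mean of 900. Tested on 3 simulated tables of 637 genes, 570 of 570 single solutions were correct, and 295 of 295 larger means had the true split among the possible ones. Library letters follow the size factors, not replicate numbers. Total depth is unknown.

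The 6 genes, the 7 pathway and 10 marker lists and the rules were chosen with earlier results of these data known. Named genes are the 6, up to 8 called genes of each list by p-value, and the 2 nearest called genes of each of the 6; some genes under this rule are not reported here. Exons are from GENCODE M21 (12 of 41 named genes overlap another gene's exon: Rora, Dusp1, Junb, Crem, Ep300, Cdkn1a, Rgs16, Dsp, Ermn, Cnp, Jun and Csrnp1), and promoters from RefSeq (GRCm38.p6). Python 3.11.15, numpy 2.4.6, pandas 2.3.3, sympy 1.14.0 and matplotlib 3.10.9 were used.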

Additional observations from a re-analysis of the deposited data

How the results depend on the processing

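Stricter calls in the authors' deposited table removed the weaker genes. At an adjusted p of at most 0.001, and likewise under a Bonferroni correction, 3 of the 6 genes were called (Nfil3, Per1 and Sik1), 2 clock genes in place of 4 and 3 glucocorticoid-induced genes in place of 7. The Bonferroni correction left 14 of the 23 cAMP and CREB responsive genes. An adjusted p of at most 0.01 and a minimum of 50 normalised reads in both groups kept all 6 genes, and a minimum absolute log2 fold change of 1 kept 5, without Rora. Pseudocounts of 1 and 10 moved no log2 fold change of the 6 by 0.1 or more. Leaving out each separated sham library gave 3.07 to 3.14 for Nfil3 and 0.92 to 1.18 for Pdk4; for the other 4 no library could be left out. Counting motifs before the start site alone changed no count over the 5 genes with a promoter window; Sik1 had none. No paired analysis was possible because the deposited columns are group means that carry no replicate number. Depth limits what the table shows of genes without a row, since their levels are unknown.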
